A study of Mus musculus with 56 samples.

Results

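Livers of mice 8 h into a food window in the light were compared with livers of mice 8 h into a food window in the dark. The members are 8 of the 56 libraries of the study, 4 from daytime-restricted feeding at zeitgeber time 8 (DRF ZT8) and 4 from nighttime-restricted feeding at ZT20 (NRF ZT20), chosen by regimen and sampling time alone. ZT counts hours from lights on. All animals were female C57BL/6J mice, housed in groups on normal chow under 12 h of light per day. They spent 7 days on the regimen, with food from ZT0 to ZT12 under DRF or from ZT12 to ZT24 under NRF, the reference, and were sampled at 9 weeks of age as separate animals. Every library is bulk liver, so fewer cells of a type and less RNA per cell cannot be told apart.

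The pairing asks which transcripts differ when the time since the food window opened is the same and the light phase is opposite. Regimen and light phase change together in it. A difference can therefore go with the light phase or with the regimen. A further 8 animals, NRF ZT8 and DRF ZT20, were 8 h into the fast and share no library with the first pair. Their difference, NRF ZT8 minus DRF ZT20, is again light minus dark, but with the regimens swapped.

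The liver clock is a feedback loop. BMAL1 (gene Arntl) pairs with CLOCK or NPAS2 and drives the Period and Cryptochrome repressors, the nuclear receptors REV-ERBα and REV-ERBβ (Nr1d1 and Nr1d2) and the activator DBP. REV-ERBs in turn repress Arntl, Npas2 and Clock. In liver, meal time is a strong cue for this loop, while heat shock genes and cold-inducible RNA-binding protein genes respond to the daily course of body temperature, which in mice is high in the active dark phase.

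Values are scaled counts, that is, counts rebuilt from the deposited gene values and scaled per library to sums of 974500 to 1071000. Longer genes collect more counts, so a value is read against other libraries and never against another gene. Differences are log2(scaled count + 1) values of DRF ZT8 minus NRF ZT20. Called means an adjusted p under 0.05 in limma, fitted over all 56 libraries and adjusted by Benjamini-Hochberg over 25414 genes. The 1 added before the logarithm shrinks differences at low values, and the ratio of group means is given beside the log2 difference where that matters.

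Markers of cell types were summed to describe the libraries, and no other tissue was set beside them. The summed level of 8 hepatocyte markers was between 127000 and 168300 scaled counts in the 8 libraries, with sums of 710.1 to 1088 for 11 Kupffer cell markers, 841.3 to 982.5 for 10 sinusoidal endothelial markers and 796.1 to 1032 for 10 stellate cell markers. Sums were 1067 to 1717 for 4 adipocyte markers and 510.9 to 994.4 for 9 red cell markers. They come from different genes and are not compared between cell types. Replicates of a group correlated at 0.98 to 0.987 across 13755 genes with a mean of at least 1 scaled count, and libraries of different groups at 0.968 to 0.982.

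Of 25414 genes, 2946 (11.6%) differed between DRF ZT8 and NRF ZT20. At DRF ZT8, 1642 were higher (6.46%) and 1304 lower (5.13%). Most differences were small, with a median absolute log2 difference of 0.39 among the called genes. Only 91 called genes reached a log2 difference of 1 in size, 56 of them higher and 35 lower at DRF ZT8. Of the called genes, 2451 did not overlap between the 2 groups, where 9.61% of all genes had every DRF library above every NRF library and 7.47% the reverse. Single libraries weighed on the count. Without NRF ZT20 replicate 1 it was 1766, of which 787 were higher. Without DRF ZT8 replicate 1 it was 1954, and without NRF ZT20 replicate 3 the number of higher genes was 1088.

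Exon length moved with the groups. A length index, the Spearman correlation across genes between exon length and a library's deviation from the mean of all 56 libraries, was -0.30, -0.16, -0.22 and -0.25 in the DRF ZT8 libraries and 0.30, 0.04, 0.15 and -0.05 in the NRF ZT20 libraries. The groups did not overlap (two-sided exact permutation test over 4 against 4 libraries, p = 0.0286, the smallest that this design allows, and 0.114 after adjustment over 16 library measures). Among genes under 500 bases, 21.5% were called higher and 1.42% lower at DRF ZT8. Among genes of 8000 bases or more, 4.29% were called higher and 14.99% lower. The part of RNA quality or library preparation in this was not tested.

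**Figure D1:**
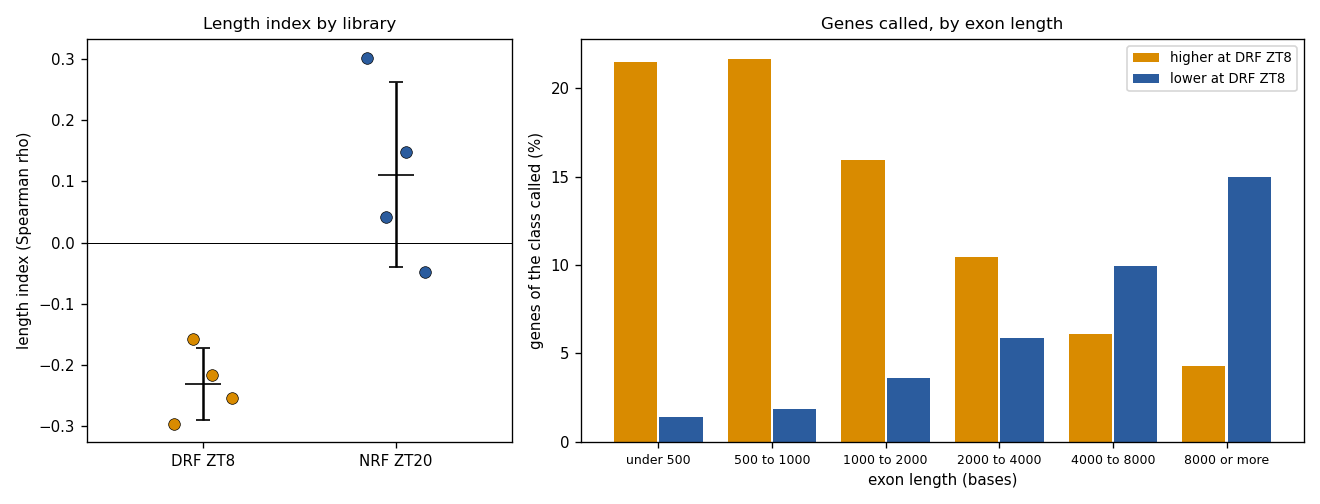
Left, the length index (Spearman rho between exon length and deviation from the mean library) of each DRF ZT8 and NRF ZT20 library, with bars for mean ± SD. Right, the share in percent of genes called higher (orange) or lower (blue) at DRF ZT8 by exon length in bases, which falls from 21.5% to 4.29% for higher genes and rises from 1.42% to 14.99% for lower genes from the shortest to the longest class.

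The balance of directions depended on the scale. The main values gave 55.7% of calls higher at DRF ZT8, and median-of-ratios scaling gave 44.7%. Removal of the length trend gave 30.4% of 5686 calls, although among the 8912 genes with a mean of at least 5 it called 1006 higher and 1001 lower, where the main values called 842 and 896. The values as deposited, with 0.1 added, gave 20.96% of 3870 calls. There the median log2 difference of the 8912 genes was -0.0653, against -0.00275 with the main values. The deposited values still hold a factor per library, 55750 to 57670 at DRF ZT8 and 58280 to 60780 at NRF ZT20. They also follow a logarithm of the counts, so this setting is on another scale than the main values. Of the 2946 calls, 2646 were also called with median-of-ratios scaling, 2657 after length correction and 1966 with the values as deposited. A fit of the 8 libraries alone called 1806 genes.

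Called antisense genes were mostly higher at DRF ZT8. Among 1650 genes annotated as antisense, 222 were called higher at DRF ZT8 and 11 lower, against 1068 higher and 1116 lower of 15109 protein-coding genes. After length correction the antisense genes split into 192 higher and 129 lower. Lower calls rose in other classes too under that setting, from 60 to 919 processed pseudogenes and from 23 to 177 lincRNA genes. Protein-coding genes then had 1267 higher and 1463 lower. Without NRF ZT20 replicate 1 the antisense genes split into 93 higher and 9 lower. Of the 233 called, 170 overlap an exon of a gene on the other strand. Whether strand was used in counting is not given in the sources used here, so such a gene and its partner cannot be told apart.

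The comparison was then set beside the fasted animals. Of the 2946 genes called 8 h into feeding, 2624 (89.1%) had the same sign of light minus dark 8 h into the fast, and 1327 (45.0%) were called there in the same direction, where 8.44% of all genes were called higher and 7.89% lower in the light. Only 42 were called in the opposite direction. The share of same-sign genes among all genes was not counted, so the 89.1% has no background beside it. With the length trend removed, the share of calls higher in the light went from 55.7% to 30.4% while feeding. In the fast it went from 51.7% to 31.2%. The part of exon length in the shared signs was not tested. Across 13755 genes the light minus dark differences of the 2 comparisons correlated at r = 0.46. This is a description across genes, and the part of exon length or base composition in it was not tested. The difference between the comparisons was tested as the regimen part of the fit, in which 380 genes (1.5%) passed, 212 with the higher level under DRF (0.834%) and 168 under NRF (0.661%). Of the 380, 136 were called 8 h into feeding. The regimen part had 241 calls without DRF ZT8 replicate 3 or without NRF ZT8 replicate 4, and 245 without DRF ZT20 replicate 3. At 4 h into feeding, in other animals, 3729 genes (14.7%) differed between DRF ZT4 and NRF ZT16, 8.85% higher and 5.82% lower at DRF ZT4, or 2242 without NRF ZT16 replicate 1. There 896 of the 2946 genes were called in the same direction, which is 30.4% of the calls at 8 h and 24.03% of those at 4 h, and 62 in the opposite direction.

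**Figure D2:**
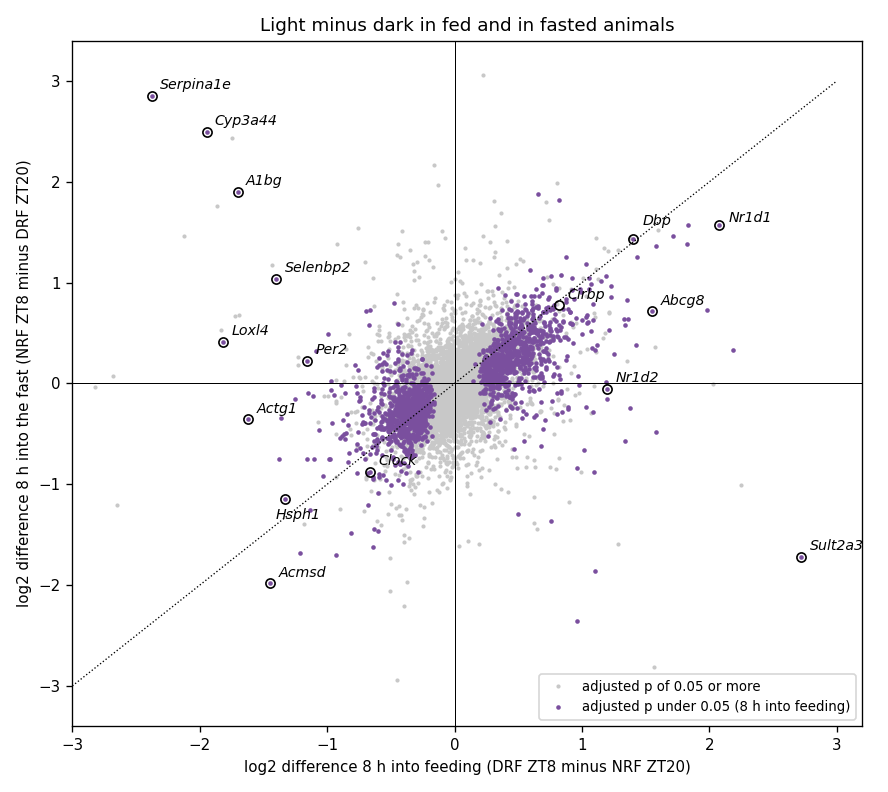
Log2 difference in light minus dark 8 h into feeding (DRF ZT8 minus NRF ZT20, horizontal) and 8 h into the fast (NRF ZT8 minus DRF ZT20, vertical) for 8939 genes with a mean of at least 5 scaled counts over the 16 libraries, of which 4 lie outside the axes. Purple points are called 8 h into feeding, the dotted line marks equal differences, and circles mark genes described in the text. Of the 1747 purple genes, 1547 have the same sign on both axes.

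Among the 19 clock genes listed, 3 were higher at DRF ZT8 (Nr1d1, Dbp and Nr1d2), 3 were lower (Per2, Npas2 and Clock) and 13 did not pass, and the same counts came from every fit that left out 1 library. Across all genes 6.46% were called higher and 5.13% lower, and 19.5% in either direction at a mean of at least 5 scaled counts. The median log2 difference of the list was -0.09, against 9e-04 for all genes.

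Nr1d1 (ENSMUSG00000020889, chromosome 11, 98767932 to 98775333), which encodes the repressor REV-ERBα, held 5.61, 4.32, 7.21 and 5.34 scaled counts in DRF ZT8 replicates 1 to 4 and 0.473, 0.485, 0.723 and 0.548 in NRF ZT20 replicates 1 to 4. All DRF libraries lay above all NRF libraries, with group means 10.1-fold apart. On the log2 scale they differed by 2.07 ± 0.31 (SE), with an adjusted p in limma of 3.33e-05. Both means were far below those of the fasted groups, 83.5 ± 4.7 (SD) at NRF ZT8 and 29.1 ± 12.7 (SD) at DRF ZT20. Exons of Thra on the other strand overlap 8.55% of its exons.

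Dbp (ENSMUSG00000059824, chromosome 7, 45705088 to 45710203), which encodes an activator of clock output genes in liver, held 4.81, 4.24, 5.34 and 4.98 scaled counts at DRF ZT8 and 1.25, 1.09, 1.09 and 1.45 at NRF ZT20. The groups did not overlap, and the means were 3.98-fold apart (log2 difference 1.40 ± 0.21 (SE), adjusted p = 3.64e-05). On this scale light minus dark was of like size in the fast, at 1.44 ± 0.21 (SE). The test of the difference between the comparisons did not pass (regimen part, adjusted p = 0.994). The fasted means were higher, 42.97 ± 10.54 (SD) at NRF ZT8 and 15.31 ± 4.05 (SD) at DRF ZT20. The 1 added before the logarithm shrinks the fed difference more, so the test cannot show that the ratios are alike. Exons of Sphk2 cover 18.01% of its exons on the other strand.

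Nr1d2, which encodes REV-ERBβ, held 47.9, 48.8, 52.6 and 51.1 scaled counts at DRF ZT8 and 24.1, 14.99, 26.7 and 21.1 at NRF ZT20. Every DRF library was higher (log2 difference 1.20 ± 0.17 (SE), adjusted p = 1.29e-05). In the fast its level was 157 ± 18.1 (SD) at NRF ZT8 and 162 ± 15.5 (SD) at DRF ZT20, a log2 difference of -0.05 with an adjusted p of 0.915. The feeding and fasting differences of Nr1d2 themselves differed (regimen part in limma, adjusted p = 0.00165), which did not pass for Nr1d1 (0.774). The 1 added before the logarithm shrinks the fed difference of Nr1d1 more than its fasted one. The result for Nr1d1 therefore cannot show that its 2 differences are alike.

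Per2, which encodes a repressor of CLOCK and BMAL1, went the other way. It held 24.8, 28.4, 46.6 and 23.4 scaled counts at DRF ZT8 and 75.3, 79.5, 63.4 and 54.2 at NRF ZT20. The NRF libraries were all higher, by 2.21-fold in the means (log2 difference -1.16 ± 0.26 (SE), adjusted p = 0.00256), and this differed from the fasting difference of 0.22 (regimen part, adjusted p = 0.0398).

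The activator genes were also lower at DRF ZT8. Npas2 held 1.28, 0.891, 0.536 and 1.01 scaled counts at DRF ZT8 and 1.78, 5.65, 2.54 and 3.27 at NRF ZT20, with no overlap and a 3.56-fold ratio of means (log2 difference -1.10 ± 0.17 (SE), adjusted p = 4.19e-05). Its fasting difference was -0.10 (adjusted p = 0.801), and its regimen part passed (adjusted p = 0.0202). Clock held 81.9, 72.5, 66.3 and 67.1 at DRF ZT8 and 114, 103, 127 and 113 at NRF ZT20, again without overlap (log2 difference -0.66 ± 0.16 (SE), adjusted p = 0.00383). Clock was lower in the light in the fast too (-0.88 ± 0.16 (SE), adjusted p = 7.53e-05), and 4 h into feeding (-0.80, adjusted p = 0.000482).

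Arntl, their partner BMAL1, held 60.4, 55.8, 51.1 and 57.5 scaled counts at DRF ZT8 and 71.9, 77.5, 77.9 and 69.8 at NRF ZT20. These values did not overlap, yet the log2 difference of -0.40 ± 0.19 (SE) did not pass (adjusted p = 0.171, 95% interval -0.78 to -0.02). Cry1 at DRF ZT8 lay between 139 and 147 and at NRF ZT20 between 154 and 204, again without overlap (-0.35 ± 0.20 (SE), adjusted p = 0.269). Cry2 showed the same order with -0.23 and an adjusted p of 0.142. The log2 differences of the other 10 clock genes lay between -0.28 for Bhlhe40 and 0.41 for Per3, with overlapping libraries in each. In a fit of the 8 libraries alone, Arntl and Cry2 passed with adjusted p-values of 0.0183 and 0.0499 and Npas2 did not (0.0539). In the fast Arntl was lower in the light (-1.57 ± 0.19 (SE), adjusted p = 1.15e-07), and 4 h into feeding too (-0.87, adjusted p = 0.00147). The regimen part of Arntl passed in limma (0.59, adjusted p = 0.0112). Cry1 was also lower in the light in the fast (-0.99 ± 0.20 (SE), adjusted p = 0.000347), while Cry2 did not pass there (0.25, adjusted p = 0.101).

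**Figure D3:**
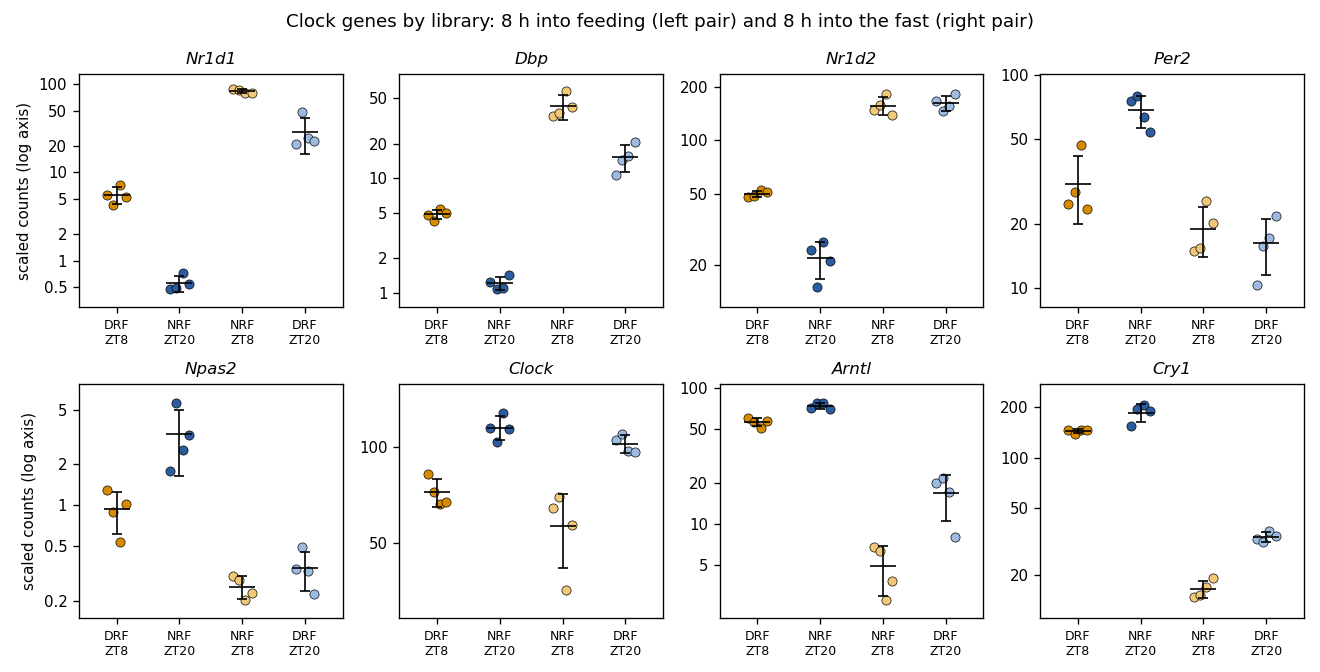
Scaled counts (log axis) of 8 clock genes in each library at DRF ZT8 and NRF ZT20 (8 h into feeding) and at NRF ZT8 and DRF ZT20 (8 h into the fast), with bars for mean ± SD (n = 4). Nr1d1, Dbp and Nr1d2 lie higher at DRF ZT8 than at NRF ZT20 and Per2, Npas2 and Clock lower, while the fed and the fasted pair lie far apart for Nr1d1, Dbp, Arntl and Cry1.

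The heat shock genes that passed were all lower in the light. Of 16 listed, 0 were higher at DRF ZT8 and 7 were lower, namely Hsph1, Chordc1, Hspa8, Hspb1, Hspa4l, Dnaja1 and Hspa4, while 5.13% of all genes were lower. The list's median log2 difference was -0.38. The count was 7 under each other scaling or pseudocount of the scaled counts, 9 with the values as deposited, and 6 or 7 when 1 library was left out. In the fasted animals 7 were lower in the light and 0 higher, against 7.89% and 8.44% of all genes. The regimen part passed in limma for 0 of the 16, with 1 at an unadjusted p under 0.05. Only 1.5% of all genes passed it, so this 0 cannot show that the fed and fasted differences are alike.

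The promoters of 3 of these genes are shown because they hold the inverted repeat that heat shock factor 1 can bind. The sequences are from RefSeq (GRCm38.p6), 250 bases before to 50 after the annotated start, 5′ to 3′ on the strand of the gene, with matches to GAANNTTC in capitals. Hsph1 is from chr5:149636287-149636586 (minus strand), Chordc1 from chr9:18292017-18292316 (plus strand) and Hspb1 from chr5:135887669-135887968 (plus strand).
Hsph1: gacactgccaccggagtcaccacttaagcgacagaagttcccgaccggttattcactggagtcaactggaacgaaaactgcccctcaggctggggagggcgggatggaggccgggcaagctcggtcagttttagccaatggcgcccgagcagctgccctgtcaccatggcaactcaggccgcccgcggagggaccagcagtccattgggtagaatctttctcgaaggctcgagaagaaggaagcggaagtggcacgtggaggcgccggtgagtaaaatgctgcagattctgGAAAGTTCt
Chordc1: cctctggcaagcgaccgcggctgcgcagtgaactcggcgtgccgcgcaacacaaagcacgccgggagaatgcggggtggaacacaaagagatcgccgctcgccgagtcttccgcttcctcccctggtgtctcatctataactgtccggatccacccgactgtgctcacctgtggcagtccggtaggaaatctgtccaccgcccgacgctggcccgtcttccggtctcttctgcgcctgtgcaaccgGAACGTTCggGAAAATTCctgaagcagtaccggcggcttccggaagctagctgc
Hspb1: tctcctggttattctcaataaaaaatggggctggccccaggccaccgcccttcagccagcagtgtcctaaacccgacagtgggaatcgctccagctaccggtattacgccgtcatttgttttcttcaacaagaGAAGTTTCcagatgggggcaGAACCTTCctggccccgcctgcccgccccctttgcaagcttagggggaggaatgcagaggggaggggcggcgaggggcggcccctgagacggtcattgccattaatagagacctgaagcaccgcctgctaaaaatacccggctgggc
The match in Hsph1 starts 42 bases after the start, those in Chordc1 at -4 and 7, and those in Hspb1 at -117 and -97. GAANNTTC, which reads the same on both strands, is in 7.86% of the 32851 promoters of the table. Of 13 heat shock genes with a promoter there, 8 hold it, and 4 of the 6 that were called.

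Hsph1 (ENSMUSG00000029657, chromosome 5, 149614287 to 149636376), which encodes a large chaperone of the HSP110 family, held 17.5, 13.8, 15.9 and 13.9 scaled counts at DRF ZT8 and 38.4, 41.8, 39.5 and 38.9 at NRF ZT20. Each group was tight and the 2 were 2.6-fold apart (log2 difference -1.33 ± 0.31 (SE), adjusted p = 0.00395). In the fast the difference was -1.15 ± 0.31 (SE) at lower levels, 7.15 ± 1.46 (SD) at NRF ZT8 and 17.2 ± 4.29 (SD) at DRF ZT20.

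Chordc1, which encodes a co-chaperone of HSP90, held 9.07, 7.48, 9.18 and 8.18 scaled counts at DRF ZT8 and 18.9, 21.04, 18.6 and 18.6 at NRF ZT20, without overlap (log2 difference -1.10 ± 0.17 (SE), adjusted p = 3.33e-05). Hspa8, the constitutive HSP70 chaperone, held 154, 93.2, 174 and 116 at DRF ZT8 and 325, 262, 213 and 244 at NRF ZT20 (-0.98 ± 0.23 (SE), adjusted p = 0.00453). Hspb1, the small chaperone HSP27, held 10.8, 15.6, 14.9 and 11.96 at DRF ZT8 and 17.2, 23.6, 26.5 and 23.4 at NRF ZT20 (-0.72 ± 0.17 (SE), adjusted p = 0.00392). In all 3 genes the lowest NRF library was above the highest DRF library. The inducible HSP70 genes Hspa1a and Hspa1b had log2 differences of -0.21 and -0.48 at levels under 2.2 scaled counts and did not pass, nor did the mitochondrial chaperone genes Hspd1 (0.02) and Hspe1 (0.15).

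Cold-inducible genes had the opposite sign. Cirbp and Rbm3, which encode RNA-binding proteins that rise in mild cold, were both higher at DRF ZT8. Cirbp held 2.71, 1.86, 2.35 and 2.38 scaled counts at DRF ZT8 and 0.81, 0.793, 1.04 and 0.857 at NRF ZT20, without overlap and with means 2.66-fold apart (log2 difference 0.82 ± 0.19 (SE), adjusted p = 0.0038). Rbm3 held 5.8, 3.18, 4.33 and 4.51 at DRF ZT8 and 3.16, 3.12, 2.22 and 1.88 at NRF ZT20, where the lowest DRF and the highest NRF library almost met (0.60 ± 0.14 (SE), adjusted p = 0.00437, and 0.0972 in a fit of the 8 libraries alone). Both were higher in the light in the fast as well, by 0.77 and 0.51.

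The heat shock genes were also examined 4 h into feeding. At DRF ZT4 against NRF ZT16, 1 of the 16 heat shock genes was lower in the light and 0 were higher, where 5.82% and 8.85% of all genes were. Hsph1 was at 76.7 ± 13.2 (SD) and 83.3 ± 14.3 (SD) scaled counts and Hspa8 at 604 ± 81.8 (SD) and 642 ± 139 (SD), levels above those of both groups 8 h into feeding. Cirbp and Rbm3 had log2 differences of 0.26 and 0.09 there, with adjusted p-values of 0.391 and 0.735. The change of the light minus dark difference between 4 and 8 h was not tested.

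**Figure D4:**
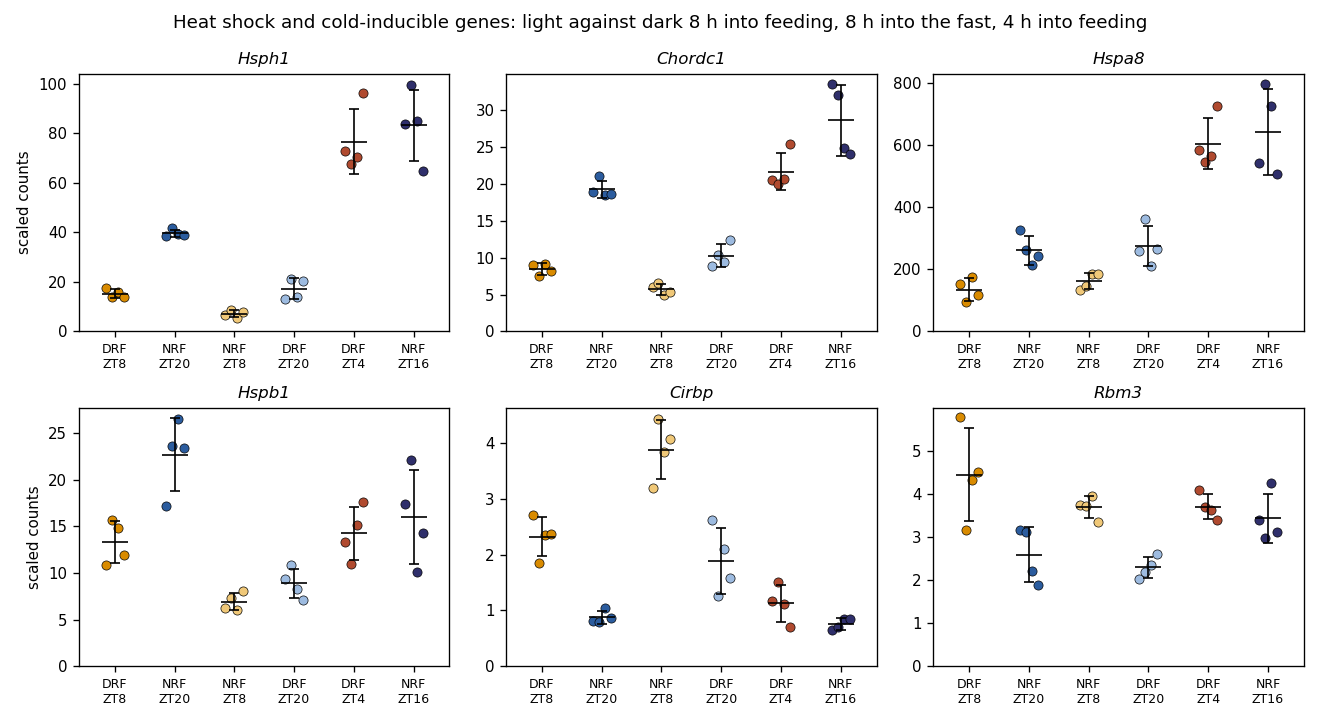
Scaled counts (linear axis from 0) of 4 heat shock genes and of Cirbp and Rbm3 in each library, in pairs of light and dark groups 8 h into feeding, 8 h into the fast and 4 h into feeding, with bars for mean ± SD (n = 4). The heat shock genes lie lower at DRF ZT8 than at NRF ZT20, and Cirbp and Rbm3 higher, while Hsph1 and Hspa8 are highest 4 h into feeding in both regimens.

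Of 12 actin and tubulin genes, 5 were lower at DRF ZT8 (Actg1, Tuba1c, Tubb4b, Tuba1a and Tuba1b) and 0 higher, while 5.13% of all genes were lower. The number of lower genes was 3 to 6 when 1 library was left out and 2 in a fit of the 8 libraries alone. Actg1 (ENSMUSG00000062825, chromosome 11, 120345690 to 120348542), which encodes cytoplasmic γ-actin, held 28.8, 24.97, 19.9 and 22.2 scaled counts at DRF ZT8 and 46.1, 119, 93.5 and 62.1 at NRF ZT20, without overlap (log2 difference -1.62 ± 0.25 (SE), adjusted p = 3.64e-05). Actb, its β-actin counterpart, had a log2 difference of 0.14 ± 0.13 (SE) (adjusted p = 0.558). Tuba1c, an α-tubulin gene, held between 51.1 and 66.5 at DRF ZT8 and between 82.1 and 110.3 at NRF ZT20 (-0.77 ± 0.20 (SE), adjusted p = 0.00794). Tubb4b lost its call without DRF ZT8 replicate 3 or NRF ZT20 replicate 3 or 4 (up to 0.0596). These families have near-identical copies, so reads could be split among them. In the fast 2 of the 12 were lower in the light. At 4 h into feeding Actg1 was higher in the light, with a log2 difference of 0.78 (adjusted p = 0.0262). The libraries overlapped there, with 74.3 to 89.1 at DRF ZT4 and 32.9, 41.5, 32.3 and 100.9 in NRF ZT16 replicates 1 to 4.

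Among 11 immediate early genes measured, Atf3 and Btg2 were lower at DRF ZT8 and 0 were higher, where 5.13% of all genes were lower and 6.46% higher. The share called in either direction was 19.5% at a mean of at least 5 scaled counts. With the values as deposited 7 of the 11 were lower. Atf3, a stress-induced transcription factor, held 3.91, 4.21, 4.98 and 4.23 scaled counts at DRF ZT8 and 9.51, 18.3, 14.4 and 10.7 at NRF ZT20 (log2 difference -1.38 ± 0.32 (SE), adjusted p = 0.00405). The groups did not overlap, and 4 h into feeding the sign was opposite (1.05, adjusted p = 0.0237). Egr1 ranged from 2.44 to 32.4 in NRF ZT20 and from 0.485 to 4.28 in DRF ZT8 and did not pass (adjusted p = 0.103). Btg2 lost its call without DRF ZT8 replicate 1 or 3 or NRF ZT20 replicate 2 or 4, with an adjusted p of up to 0.161 without DRF ZT8 replicate 3.

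The genes with the largest differences included several in which light minus dark turned over between the fed and the fasted animals. Serpina1e (ENSMUSG00000072849, chromosome 12, 103946931 to 103958975), an α1-antitrypsin gene that is sex-biased in mouse liver, held 217, 331, 165 and 411 scaled counts at DRF ZT8 and 1753, 815, 2779 and 896 at NRF ZT20. The groups did not overlap (log2 difference -2.38 ± 0.49 (SE), adjusted p = 0.00123). In the fast it was at 2070.0 ± 476 (SD) at NRF ZT8 and 294 ± 111 (SD) at DRF ZT20, so it was higher in both NRF groups (regimen part, adjusted p = 9.28e-06).

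Sult2a3 (ENSMUSG00000074375, chromosome 7, 14067446 to 14123044), one of the sulfotransferase genes for bile acids and steroids, was higher under DRF. It held 101, 9.87, 37.04 and 24.4 scaled counts at DRF ZT8 and 1.77, 3.5, 3.33 and 9.44 at NRF ZT20. The animals of the DRF group spread widely, and the lowest of them was just above the highest NRF animal (log2 difference 2.72 ± 0.67 (SE), adjusted p = 0.00608, and 0.0624 in a fit of the 8 libraries alone). With the values as deposited (0.271) and in a fit of the 8 libraries alone (0.0624) it did not pass. Its regimen part passed (adjusted p = 0.00725), but the fasting difference alone, with 3.52 ± 2.37 (SD) at NRF ZT8 and 15.3 ± 9.26 (SD) at DRF ZT20, did not (0.075).

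Cyp3a44, a female-predominant cytochrome P450 gene, held 138, 119, 50.8 and 236 scaled counts at DRF ZT8 and 485, 232, 812 and 488 at NRF ZT20 (log2 difference -1.95 ± 0.48 (SE), adjusted p = 0.00577). The highest DRF and the lowest NRF library overlapped, and in a fit of the 8 libraries alone the adjusted p was 0.0711. In the fast the sign was opposite, with 2.50 ± 0.48 (SE), and the difference between the comparisons passed (adjusted p = 0.000103). Counts of Serpina1e, Sult2a3, Cyp3a44 and the major urinary protein gene Mup3 could include reads of near-identical family members.

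A1bg, another female-predominant liver gene, held 46.96, 40.5, 3.54 and 49.2 scaled counts at DRF ZT8 and 70.2, 90.01, 90.4 and 84.8 at NRF ZT20. DRF ZT8 replicate 3 stood far below its group, and without it the adjusted p was 0.298, against 0.0386 with all libraries. It was 0.0603 to 0.0805 when 1 NRF ZT20 library was left out. Selenbp2, Mup3 and Apcs, the gene for serum amyloid P component, were lower at DRF ZT8 by 1.40, 1.09 and 0.66 on the log2 scale, and their regimen parts passed too, although the fasting difference of Mup3 alone did not (0.32, adjusted p = 0.307). Sds, serine dehydratase, and Por, the reductase that serves cytochrome P450 enzymes, were higher by 1.02 and 0.56 and did the same. In the growth hormone and sex-biased list 3 of 20 genes were lower at DRF ZT8 and 0 higher, against 5.13% and 6.46% of all genes. The share called in either direction was 19.5% at a mean of at least 5 scaled counts. In the fast 5 of the 20 were higher in the light and 1 lower, against 8.44% and 7.89% of all genes.

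**Figure D5:**
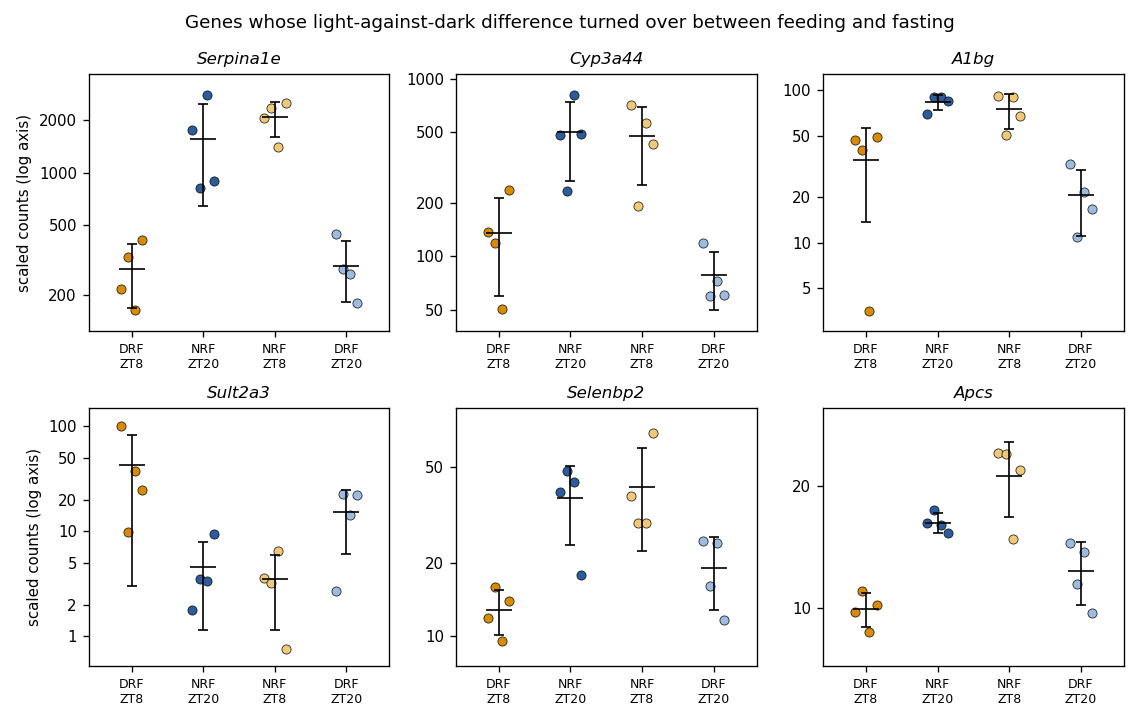
Scaled counts (log axis) of 6 genes in each library at DRF ZT8, NRF ZT20, NRF ZT8 and DRF ZT20, with bars for mean ± SD (n = 4). Serpina1e, Cyp3a44, A1bg, Selenbp2 and Apcs have higher means in both NRF groups and Sult2a3 in both DRF groups, at ZT8 and at ZT20.

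Loxl4 had the smallest adjusted p of the named genes. It encodes a lysyl oxidase-like enzyme and held 4.25, 3.55, 2.15 and 3.95 scaled counts at DRF ZT8 and 8.63, 20.9, 15.8 and 15.1 at NRF ZT20 (log2 difference -1.81 ± 0.18 (SE), adjusted p = 8.76e-09). All NRF libraries were higher. In the fast its level was 2.76 ± 0.433 (SD) at NRF ZT8 and 1.84 ± 0.391 (SD) at DRF ZT20, so NRF ZT20 stood above the other 3 groups. Slc34a2, a sodium-phosphate cotransporter gene, and Hapln1, a link protein gene of the matrix, were likewise highest at NRF ZT20 among these 4 groups, with means of 1.67 ± 0.455 (SD) and 3.15 ± 1.49 (SD) at DRF ZT8 and 8.01 ± 2.29 (SD) and 11.2 ± 4.67 (SD) at NRF ZT20. Acmsd, an enzyme gene that draws tryptophan breakdown away from NAD synthesis, held 46.9, 41.9, 69.8 and 71.5 scaled counts at DRF ZT8 and 138, 187, 198 and 111 at NRF ZT20 (log2 difference -1.45 ± 0.24 (SE), adjusted p = 0.000111). It was lower in the light in the fast as well (-1.98 ± 0.24 (SE)).

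Bile acid and sterol genes moved in both directions. Of 18 listed, 3 were higher at DRF ZT8 (Abcg8, Abcg5 and Slc51b, part of a bile acid exporter) and 4 lower (Cyp8b1, Baat, Nr1h4 and Abcb11). Across all genes 6.46% were higher and 5.13% lower, and of genes with a mean of at least 5 scaled counts 19.5% were called in either direction. The number of lower genes in the list depended on the setting, with 6 under median-of-ratios scaling, 8 after length correction, 10 with the values as deposited and 1 in a fit of the 8 libraries alone. Abcg5 and Abcg8 together encode the transporter that exports cholesterol and plant sterols into bile, and they lie head to head on chromosome 17. Their start sites in the RefSeq promoter table are 110 bases apart, and the window of Abcg8 (chr17:84682871-84683170, plus strand, GRCm38.p6) is shown because 209 of its bases, in capitals, also belong to the window of Abcg5.
Abcg8: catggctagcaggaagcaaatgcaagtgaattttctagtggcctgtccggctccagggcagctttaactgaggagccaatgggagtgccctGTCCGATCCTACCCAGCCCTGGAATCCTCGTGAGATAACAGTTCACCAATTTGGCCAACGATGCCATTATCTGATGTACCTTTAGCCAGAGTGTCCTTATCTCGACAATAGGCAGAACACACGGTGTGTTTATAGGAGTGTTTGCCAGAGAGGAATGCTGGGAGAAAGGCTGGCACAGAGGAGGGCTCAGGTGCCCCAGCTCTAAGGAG
Abcg8 (ENSMUSG00000024254, chromosome 17, 84676302 to 84700333) held 36.95, 41.1, 51.2 and 25.7 scaled counts at DRF ZT8 and 11.4, 10.8, 16.2 and 11.03 at NRF ZT20. The DRF libraries were all higher, by 3.14-fold in the means (log2 difference 1.55 ± 0.18 (SE), adjusted p = 6.98e-07). Abcg5 held 123, 127, 143 and 97.3 at DRF ZT8 and 61.96, 57.2, 74.1 and 57.6 at NRF ZT20, also without overlap (0.95 ± 0.14 (SE), adjusted p = 3.09e-05). Exons of the pair overlap by 2.19% of Abcg8 and 3.02% of Abcg5. Both were higher in the light in the fast, by 0.71 and 0.65, and Abcg8 had means of 80.02 ± 5.17 (SD) at NRF ZT8 and 48.8 ± 8.39 (SD) at DRF ZT20.

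On the lower side were Cyp8b1, the 12α-hydroxylase that sets the share of cholic acid, Baat, which conjugates bile acids, Nr1h4, the bile acid receptor FXR, and Abcb11, the bile salt export pump. Their log2 differences were -0.88, -0.44, -0.39 and -0.30. Cyp8b1 held 44.1, 33.7, 19.03 and 43.96 scaled counts at DRF ZT8 and 54.1, 69.6, 51.4 and 78.6 at NRF ZT20, and without DRF ZT8 replicate 3 its adjusted p was 0.0738. Cyp7a1, the rate-limiting enzyme of bile acid synthesis, held 125, 52.6, 108 and 185 at DRF ZT8 and 185, 242, 199 and 259.7 at NRF ZT20. The highest DRF and the lowest NRF library were level, and the log2 difference of -1.02 ± 0.38 (SE) did not pass (adjusted p = 0.0698).

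The genes of cholesterol synthesis and of lipogenesis gave no call. In the cholesterol list, 0 of 23 differed in limma (3 at an unadjusted p under 0.05) between DRF ZT8 and NRF ZT20, with a log2 difference of -0.63 for Sqle, the squalene epoxidase gene, although 11 were higher in the light in the fast and 4 had a regimen part. Across all genes 11.6% differed 8 h into feeding, 8.44% were higher in the light in the fast and 1.5% had a regimen part. For Hmgcs1, which makes HMG-CoA, the difference was -0.08 ± 0.26 (SE) with a 95% interval of -0.60 to 0.44 in the fed animals and 1.44 ± 0.26 (SE) in the fasted ones. In the lipogenesis list 0 of 17 differed, again with 3 at an unadjusted p under 0.05. Fasn, fatty acid synthase, had -0.81 ± 0.38 (SE) and an interval of -1.57 to -0.05, and Srebf1, the transcription factor gene of the pathway, 0.02 ± 0.20 (SE) and -0.38 to 0.43. With the values as deposited 4 genes of each list were called lower.

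The fatty acid oxidation genes that passed were higher at DRF ZT8. Of 22 listed, 4 were higher (Cyp4a14, Cpt1a, Acadm and Acadl), 0 were lower, and 20 had a positive sign, with a median log2 difference of 0.29. Of all genes 6.46% were called higher, and of genes with a mean of at least 5 scaled counts 19.5% were called in either direction. In the fast the list's median light minus dark difference was -0.25. There 0 of the 22 were higher in the light and 3 lower, against 8.44% and 7.89% of all genes. The regimen part passed in limma for 3, all with the higher level under DRF, against 0.834% of all genes. It had an unadjusted p under 0.05 for 13 of the 22. Cpt1a, which carries long-chain fatty acids into mitochondria, held 101, 102, 102 and 99.6 scaled counts at DRF ZT8 and 72.5, 66.8, 72.8 and 79.95 at NRF ZT20, without overlap (log2 difference 0.47 ± 0.14 (SE), adjusted p = 0.0186). Cyp4a14, a fatty acid hydroxylase gene and PPARα target, held 399, 582, 695 and 451 at DRF ZT8 and 128, 262, 319 and 325 at NRF ZT20 (1.09 ± 0.36 (SE), adjusted p = 0.0387). The calls were fragile. With the values as deposited 0 of the 22 passed, 1 passed in a fit of the 8 libraries alone, and between 1 and 5 passed when 1 library was left out. Cyp4a14 lost its call without DRF ZT8 replicate 2, 3 or 4 or NRF ZT20 replicate 1 or 2, and Acadm without DRF ZT8 replicate 1 or NRF ZT20 replicate 1 or 2. Without NRF ZT20 replicate 1 the adjusted p was 0.207 for Cyp4a14, 0.119 for Acadm and 0.0717 for Acadl, and without NRF ZT20 replicate 2 it was 0.0592 for Cpt1a.

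In the urea cycle and amino acid list, 1 of 21 genes was higher at DRF ZT8 (Sds) and 3 lower (Cps1, Slc25a15 and Ddc), whereas in the fast 15 were lower in the light and 0 higher, and 8 had a regimen part. Across all genes 6.46% were higher and 5.13% lower 8 h into feeding, 7.89% were lower in the light in the fast, and 1.5% had a regimen part. The share called in either direction 8 h into feeding was 19.5% at a mean of at least 5 scaled counts. With the values as deposited 1 of the 21 was higher and 11 lower 8 h into feeding. Sds held 69.5, 55.97, 109.8 and 106 scaled counts at DRF ZT8 and 41.2, 33.99, 43.5 and 42.4 at NRF ZT20, without overlap (log2 difference 1.02 ± 0.21 (SE), adjusted p = 0.00139), while exons of Plbd2 on the other strand cover 21.2% of its exons. Cps1, which feeds ammonia into the cycle, held 14970.0, 13000.0, 17290.0 and 18950.0 at DRF ZT8 and 23340.0, 26340.0, 24310.0 and 22610.0 at NRF ZT20 (-0.60 ± 0.18 (SE), adjusted p = 0.0238). The length used for it could not be checked at this count, and its adjusted p reached 0.0933 without DRF ZT8 replicate 2. Slc25a15, the ornithine carrier, had 0.0844 without NRF ZT20 replicate 3. Both calls were lost without DRF ZT8 replicate 1 or 2 or NRF ZT20 replicate 2 or 3, and that of Ddc, which makes dopamine from L-DOPA, without any library other than NRF ZT20 replicate 4 (up to 0.136 without DRF ZT8 replicate 2).

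In the xenobiotic list, 4 of 40 genes were higher at DRF ZT8 (Sult2a3, Por, Nqo1 and Nr1i3) and 2 lower (Cyp3a44 and Cyp3a13), with 10 regimen parts, where 6.46% and 5.13% of all genes were higher and lower and 1.5% had a regimen part. The share called in either direction was 19.5% at a mean of at least 5 scaled counts. Median-of-ratios scaling gave 3 higher and 4 lower, and the values as deposited 0 higher and 6 lower. Por held 102, 102, 126 and 112 scaled counts at DRF ZT8 and 71.1, 73.4, 83.5 and 70.04 at NRF ZT20, without overlap (log2 difference 0.56 ± 0.11 (SE), adjusted p = 0.000509), but with the values as deposited it did not pass (0.143). Cyp1a1, the target gene of the aryl hydrocarbon receptor, was higher at DRF ZT8 by 1.45 but lower 4 h into feeding (-1.37, adjusted p = 0.0326). Its means 4 h into feeding were 2.75 ± 0.844 (SD) at DRF ZT4 and 18.9 ± 20.3 (SD) at NRF ZT16, where the libraries spread widely. The call of Cyp1a1 at 8 h was lost without DRF ZT8 replicate 1, 3 or 4 or NRF ZT20 replicate 1 or 2 (adjusted p up to 0.102 without NRF ZT20 replicate 1). Nqo1, a quinone reductase gene, lost its call without DRF ZT8 replicate 1 or 4 or NRF ZT20 replicate 1 or 2 (up to 0.124). Cyp2a22 had 1.34 ± 0.29 (SE) (adjusted p = 0.00179).

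Calls in the lists that follow stand against 11.6% of all genes called in either direction. At a mean of at least 5 scaled counts the share was 19.5%. In the unfolded protein response list, Xbp1, its transcription factor gene, and Sel1l, which serves the degradation of misfolded proteins, were lower at DRF ZT8, 2 of 18. Xbp1 held 34.9, 32.1, 32.4 and 28.2 scaled counts at DRF ZT8 and 43.2, 50.2, 46.3 and 48.9 at NRF ZT20 (log2 difference -0.55 ± 0.10 (SE), adjusted p = 0.000453). In the acute phase list Saa1, Apcs and Steap4 were lower, 3 of 22, and Saa1, a serum amyloid gene, had an adjusted p of 0.0712 without NRF ZT20 replicate 3 and 0.0557 without DRF ZT8 replicate 3. In the matrix list Col4a2, a basement membrane collagen gene, was higher and Nid2 lower, 2 of 16. Neither passed in a fit of the 8 libraries alone, Col4a2 did not pass with the values as deposited (0.423), which gave 0 higher and 5 lower, and Nid2 lost its call without DRF ZT8 replicate 1 or 3 or NRF ZT20 replicate 1 or 2 (adjusted p up to 0.0868). Chac1, which breaks down glutathione, and Shmt2, a mitochondrial enzyme of serine use, were the 2 of 15 higher in the stress response and serine list. Both calls were lost without DRF ZT8 replicate 4 or NRF ZT20 replicate 1 or 3, that of Chac1 also without DRF ZT8 replicate 2 or NRF ZT20 replicate 2 (up to 0.123) and that of Shmt2 without DRF ZT8 replicate 1 or 3 (up to 0.153 without NRF ZT20 replicate 1). Ppargc1a was the only call of 16 in the glucose list and lost it without any library other than DRF ZT8 replicate 2 (adjusted p up to 0.168 without DRF ZT8 replicate 3). In the glucocorticoid and cell cycle lists, 0 of 14 and 0 of 16 passed in limma, with 5 and 4 at an unadjusted p under 0.05.

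Among markers of other cells, the Kupffer cell list had 2 of 11 genes higher at DRF ZT8, where 6.46% of all genes were higher. The share called in either direction was 19.5% at a mean of at least 5 scaled counts. Marco, a scavenger receptor gene of macrophages, held 17.1, 65.9, 80.01 and 22.5 scaled counts at DRF ZT8 and 10.5, 9.21, 14.6 and 14.6 at NRF ZT20, and replicates 2 and 3 of DRF ZT8 carried the difference (log2 difference 1.58 ± 0.54 (SE), adjusted p = 0.0481, and 0.174 without DRF ZT8 replicate 3). The call was also lost without DRF ZT8 replicate 2 and without each NRF ZT20 library. Cd5l, a secreted macrophage protein gene, was higher by 0.61 (adjusted p = 0.0129). The summed markers were 779.9 to 1088 at DRF ZT8 and 710.1 to 867.2 at NRF ZT20 (exact permutation p = 0.314), and Clec4f and Vsig4, which define Kupffer cells, had log2 differences of -0.18 and -0.01. The summed hepatocyte markers were lower at DRF ZT8, 127000 to 146300 against 152600 to 168300 (exact permutation p = 0.0286, and 0.114 after adjustment over the 16 library measures), with Cps1 the only called gene of 8. Their part in the results was not tested. Pkhd1 was the 1 called of 9 cholangiocyte markers, lower at DRF ZT8 (-0.41). Of 2 exocrine pancreas markers measured, Cela2a was higher (0.26). In limma 0 of the 10 endothelial, 10 stellate, 10 lymphocyte, 7 neutrophil, 9 red cell and 4 adipocyte markers passed, with 1, 1, 3, 0, 0 and 0 at an unadjusted p under 0.05.

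Short structured RNAs were among the highest differences. Rn7sk (ENSMUSG00000065037, chromosome 9, 78175303 to 78175633), the 7SK RNA that holds back transcription elongation, held 2286, 1421, 1544 and 2348 scaled counts at DRF ZT8 and 507, 665, 506 and 858 at NRF ZT20. Rpph1, the RNA of RNase P, held 972, 672, 659 and 1001 at DRF ZT8 and 350.1, 224, 104 and 331 at NRF ZT20. Rn7s1, the 7SL RNA of the signal recognition particle, held 3991, 3335, 2866 and 4290.0 at DRF ZT8 and 2366, 1789, 1088 and 1994 at NRF ZT20. All 3 were higher at DRF ZT8 without overlap, by 1.58, 1.82 and 1.04 on the log2 scale (adjusted p = 0.0156, 0.0012 and 0.0131). They are 300 to 331 bases long, and genes under 500 bases held 1.53% to 2.16% of scaled counts at DRF ZT8 against 0.997% to 1.41% at NRF ZT20. Without single libraries the adjusted p reached 0.0526 for Rn7sk (without NRF ZT20 replicate 1, and 0.0503 without DRF ZT8 replicate 1) and 0.0811 for Rn7s1 (without NRF ZT20 replicate 3). Rn7s1 contains Gm47287, an annotated copy that was lower at DRF ZT8 (-8.76), so reads could be split between them. These RNAs lack a polyA tail, and the labels name both ribosomal RNA depletion and polyA RNA, so their capture is uncertain. With the values as deposited, Rn7sk (0.0947) and Rn7s1 (0.364) did not pass.

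The remaining genes of the 12 highest differences were Cabcoco1, Serpina7, Sycp3 and Bmf. Cabcoco1 held 22.7, 14.7, 19.3 and 20.7 scaled counts at DRF ZT8 and 5.67, 8.49, 4.49 and 7.84 at NRF ZT20 (log2 difference 1.43 ± 0.26 (SE), adjusted p = 0.000309). Serpina7 encodes thyroxine-binding globulin and was higher by 1.41 (adjusted p = 0.000407). Sycp3, a meiotic gene, was higher by 1.36, but 52.2% of its exons lie under exons of Chpt1 on the other strand. Bmf, a gene of the BCL2 family that promotes cell death, lost its call without DRF ZT8 replicate 2 (adjusted p = 0.086) or NRF ZT20 replicate 2 (0.0567). Myom3 and Keg1 were lower by 1.45 and 1.37. Among genes of the highest level, Pzp, Serpina1c, Serpina3k and Cyp2c68 were lower by 0.33, 0.37, 0.97 and 0.30, with lengths that could not be checked. Serpina1c kept its call in every fit that left out 1 library but lost it in a fit of the 8 libraries alone (adjusted p = 0.0766). Pzp lost it without DRF ZT8 replicate 1, 3 or 4 or NRF ZT20 replicate 1 or 2 (adjusted p up to 0.122), Serpina3k without DRF ZT8 replicate 1 or 4 or NRF ZT20 replicate 1, 2 or 3 (up to 0.173), and Cyp2c68 without any library other than DRF ZT8 replicate 2 or NRF ZT20 replicate 3 (up to 0.11).

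Known promoter motifs were counted among the called genes. The E-box CACGTG was in 11% of 979 higher and 11.2% of 902 lower genes with a promoter, against 10.7% of 13074 tested genes and 7.15% of all promoters. The ROR element TAGGTCA was in 2.45% and 1.33%, against 2.64% and 2.61%. The D-box TTATGTAA was in 0.511% and 0.887%, against 0.864% and 0.938%. TCACNCCAC, a sterol element, was in 1.33% and 1.11%, against 1.54% and 1.24%, and GAANNTTC in 5.82% and 8.09%, against 7.32% and 7.86%. Both strands were searched, and these shares are descriptions without a test.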

How the data were processed

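The extract protocol in the labels describes liver RNA depleted of ribosomal RNA and strand-specific paired reads, while the molecule field says polyA RNA, which bears on RNAs without a polyA tail. The submitters' processing notes name CASAVA 1.8, featureCounts 1.5.0-p3 and the genome build GRCm38.p6. The authors deposited 1 table of gene values for 56 libraries, named TPM but treated here as a score, since value times exon length follows a library factor times the natural log of 1 plus a step times whole counts. Counts were rebuilt by inverting that curve (whole within 0.05 for 22939 genes with the annotated exon length and 2194 with a searched one, against 10% whole by chance, with 192 and 8 more within 0.2). For 81 genes of the highest counts the length could not be judged, and 1 gene was not rebuilt. Rebuilt totals were 448.5 M to 529.6 M counts per library at DRF ZT8 and 392.4 M to 730.5 M at NRF ZT20. The library factor was 55750 to 57670 at DRF ZT8 and 58280 to 60780 at NRF ZT20, and its part in the results was tested only through the values as deposited. The paper states an average and a minimum number of reads across the samples of all its tissues. Rebuilt counts are not reads, so the depth of each library is unknown here and no counting interval is given. Circular RNA and transcript tables were not used, and the aligner's settings and use of strand are not given in the sources used here.

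Scaled counts were tested as log2(scaled count + 1) with limma 3.58.1 (R 4.3.3) on 14 groups of 4, two-sided, with Benjamini-Hochberg adjustment, and no gene was filtered out. The light-phase and regimen parts are the mean and the halved difference of the feeding and fasting comparisons, fitted as contrasts. Library measures were compared by exact permutation tests (Python 3.11.15, numpy 2.4.6, pandas 2.3.3, scipy 1.17.1). Genes named were the 12 largest non-overlapping calls in each direction with a mean of at least 5 in the higher group and a gene symbol other than Gm or Rik, up to 4 called genes per list, all clock and cold-inducible genes, and the 6 called genes of the highest level. Other list members were named to show the list. Members and lists were chosen with earlier results of these data known. The scripts were tested on simulated data, and p-values measure the spread between single animals of 1 study.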

Additional observations from a re-analysis of the deposited data

Results flagged for a closer look

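Of the 24 genes with the largest differences, 6 had a light minus dark difference that itself differed between feeding and fasting (limma, regimen part, adjusted over all genes, where 1.5% of genes passed). These genes were chosen for a large feeding difference, which is itself part of that contrast, so the count is a description and the choice favours such a gap. The regimen part, the halved gap between the comparisons as DRF minus NRF, was 2.22 for Sult2a3 (adjusted p = 0.00725), 0.95 for Cyp2a22 (0.00724), -2.61 for Serpina1e (9.28e-06), -1.11 for Loxl4 (3.09e-07), -1.80 for A1bg (0.00877) and -1.22 for Selenbp2 (0.00392), all on the log2 scale.

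In 9 of 194 groups of 4 libraries, 1 library stood apart from the other 3, where chance alone gives about 1 in 20. In scaled counts these were Abcg8 in NRF ZT20 replicate 3 (16.2), Cyp2a22 in DRF ZT8 replicate 1 (103.6), Myom3 in NRF ZT20 replicate 3 (11.4), Cry1 in DRF ZT8 replicate 2 (138.9), Bhlhe41 in NRF ZT20 replicate 4 (0.0557), Chordc1 in NRF ZT20 replicate 2 (21.0) and Saa1 in NRF ZT20 replicate 3 (20.3). The sum of scaled counts was 1033000 in DRF ZT8 replicate 4, and the summed Kupffer cell markers were 1088 in DRF ZT8 replicate 2.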

How the results depend on the processing

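Against 2946 calls between DRF ZT8 and NRF ZT20, removal of the length trend gave 5686, of which 3955 were lower at DRF ZT8, and a fit of the 8 libraries alone gave 1806 (942 higher and 864 lower). The values as deposited gave 811 higher and 3059 lower. With the length trend removed, the fasting comparison had 6912 calls against 4150, the light-phase part 10192 against 6312 and the 4 h comparison 5858 against 3729. The 4 h comparison had 1030 in a fit of its own libraries, and the regimen part 104 against 380 with the values as deposited. The causes were not tested. With 1 library left out, calls ranged from 1766 to 2947 (787 to 1675 higher and 872 to 1272 lower), from 3035 to 3650 in the fast, from 5590 to 6263 for the light phase, from 241 to 404 for the regimen and from 2242 to 4346 at 4 h.

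Of 68 named genes that were called, 43 kept their call in each of the 8 fits that left out 1 library, 33 lost it under another setting (26 in a fit of the 8 libraries alone), and 0 of the 13 others gained one when a library was left out. Acadl changed sign with the values as deposited (-0.0126, adjusted p = 0.766, against 0.33). No filter was needed, since all genes tested passed it.

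Libraries with the same replicate number were different animals, and their deviations correlated at -0.07, -0.05, 0.11 and 0.01 across genes, so the numbers were not taken as pairs. With the replicate number as a block, 2941 genes were called (1633 higher and 1308 lower), 4162 in the fast, 6302 for the light phase and 364 for the regimen, and of the named genes only Ddc lost its call (adjusted p = 0.058). The 4 animals per group and the unknown depth of each library limit what could be detected.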

Other observations

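Annotated copies of short RNAs showed all-or-none values. Gm47287 (chromosome 12, 69159437 to 69159506), annotated as a microRNA gene of 70 bases, lies within Rn7s1. It was at the level of 1 rebuilt count in each DRF ZT8 library (0.00219, 0.00184, 0.00196 and 0.00208 scaled counts) and at 108, 686, 527 and 890.3 in the NRF ZT20 libraries (log2 difference -8.76 ± 1.56 (SE), adjusted p = 0.000238), and the fasting comparison had the same sign (-6.74). Gm47305 (chromosome 12, 69361270 to 69361339) had 0.00219, 0.00184, 0.00196 and 0.00208 at DRF ZT8 and 468, 738, 545 and 0.00169 at NRF ZT20, where replicate 4 lay with the DRF libraries. Both genes were chosen after their values were seen, reads of such copies could be split among them and Rn7s1, and the cause was not tested.

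Nnt, nicotinamide nucleotide transhydrogenase of the mitochondrial inner membrane, has a pair of entries at 1 locus, also chosen after the values were seen. The entry ENSMUSG00000025453 held 15.7, 226, 212 and 15.2 scaled counts in DRF ZT8 replicates 1 to 4 and 17.6, 10.8, 11.5 and 8.38 in NRF ZT20 replicates 1 to 4. The entry ENSMUSG00000116207 held 363, 0, 0 and 387 in DRF ZT8 and 384, 401, 219 and 218 in NRF ZT20. In DRF ZT8 replicates 2 and 3 the counts therefore stood under the first entry and in the other 6 libraries mostly under the second. All animals are given as the same strain. Whether animals of the DRF ZT8 group differ at this locus was not tested.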
